A study of Mus musculus with 5 samples.

Results

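The 10 genes described here belong to the acute phase response and to granulocyte recruitment, and were followed in cells sorted from precancerous mammary lesions: Csf3, Lcn2, Hp, Chil1, Cd14, Lbp, C3, Saa1, Saa2 and Saa3. They were found by gene symbol, 10 of the 24347 symbols in each library's table, and each was represented by a single RefSeq transcript. The series set Krt6a+ cells, labelled as keratin 6a positive precancerous stem cells (2 libraries, numbered 2 and 3), against WAP+ cells, named for the whey acidic milk protein (3 libraries, numbered 1 to 3). All libraries came from MMTV-Wnt-1 transgenic mice on a mixed FVB, SJL and C57BL/6 background, in which the MMTV LTR drives Wnt-1 in the mammary epithelium, so no library came from tissue without the transgene. Cells were sorted in small numbers with an antibody to TVA, and their cDNA was amplified before sequencing. The sources used here do not give the age of the mice, whether animals were pooled or how TVA marked each population. Nothing in the labels places the libraries in separate animals, so p-values cover the spread among these 5 samples alone and part of it may be technical.

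The acute phase response is the rapid change in secreted proteins that follows infection or injury. It is best known from the liver, where interleukin 6 acting through STAT3, and interleukin 1 acting through NF-kB and C/EBP factors, switch on genes such as haptoglobin and serum amyloid A. Epithelia that face the outside, the mammary gland included, make several of the same proteins locally, together with factors that call in and feed neutrophils.

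The genes were chosen by their FPKM in these same libraries, low in Krt6a+ and high in WAP+, so their difference between the populations is a description and carries no test. Levels are FPKM, fragments scaled to transcript length and to the mapped fragments of the library, which may be compared between genes. Values given per library are the deposited FPKM. Means with SD and log2 differences use FPKM scaled for library composition, the differences being Krt6a+ minus WAP+ on the log2(scaled FPKM + 1) scale, which understates the change of low genes. These are pools of cells, so a lower level cannot be split into fewer expressing cells and less RNA per cell. At FPKM 1 or more there were 8112 and 8580 genes in Krt6a+ libraries, against 8900, 8420 and 8202 in WAP+ libraries, from 290000000 to 385000000 covered fragment bases. The 95% intervals deposited with each value are read here as counting error only. Gapdh was listed at 0 in 3 libraries and Eno1 in 5, so a 0 in these tables may be an estimate that failed, and it is written as listed at 0. The naming genes went with the labels: Krt6a had FPKM 1380 and 1133 in Krt6a+ libraries, against 168, 50.01 and 120 in WAP+ libraries, and Wap was listed at 0 in both Krt6a+ libraries, against 50.1, 126 and 13.9 in WAP+ libraries.

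Together the 10 transcripts made up 0.212% and 0.126% of all FPKM in Krt6a+ libraries, against 3.00%, 2.12% and 2.32% in WAP+ libraries. Lcn2 alone supplied 92.6% and 88.3% of that sum in Krt6a+ libraries, against 86.3%, 83.7% and 84.2% in WAP+ libraries. For 9 of the 10 genes every Krt6a+ library lay below every WAP+ library, an arrangement found in 17.4% of the 9682 genes tested, while groups without overlap in either direction made up 34.8%. Saa2 was the exception, since it was listed at 0 in 1 WAP+ library too. In the fit over all tested genes 5 of the 10 were past the threshold as lower in Krt6a+ (Csf3, Hp, Lcn2, Chil1 and Cd14), against a background of 0.434% of all genes lower and 0.692% past it in either direction (limma, adjusted p under 0.05), a count that follows from how they were picked. That count was 2 without WAP+ library 1, 2 without WAP+ library 2 and 3 without WAP+ library 3, with Csf3 and Hp among them each time, and 5 and 6 without Krt6a+ library 2 and 3. All 10 passed the filter of FPKM 1 or more in at least 2 libraries, 4 of them (C3, Saa1, Saa2 and Saa3) through WAP+ libraries alone.

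**Figure D1:**
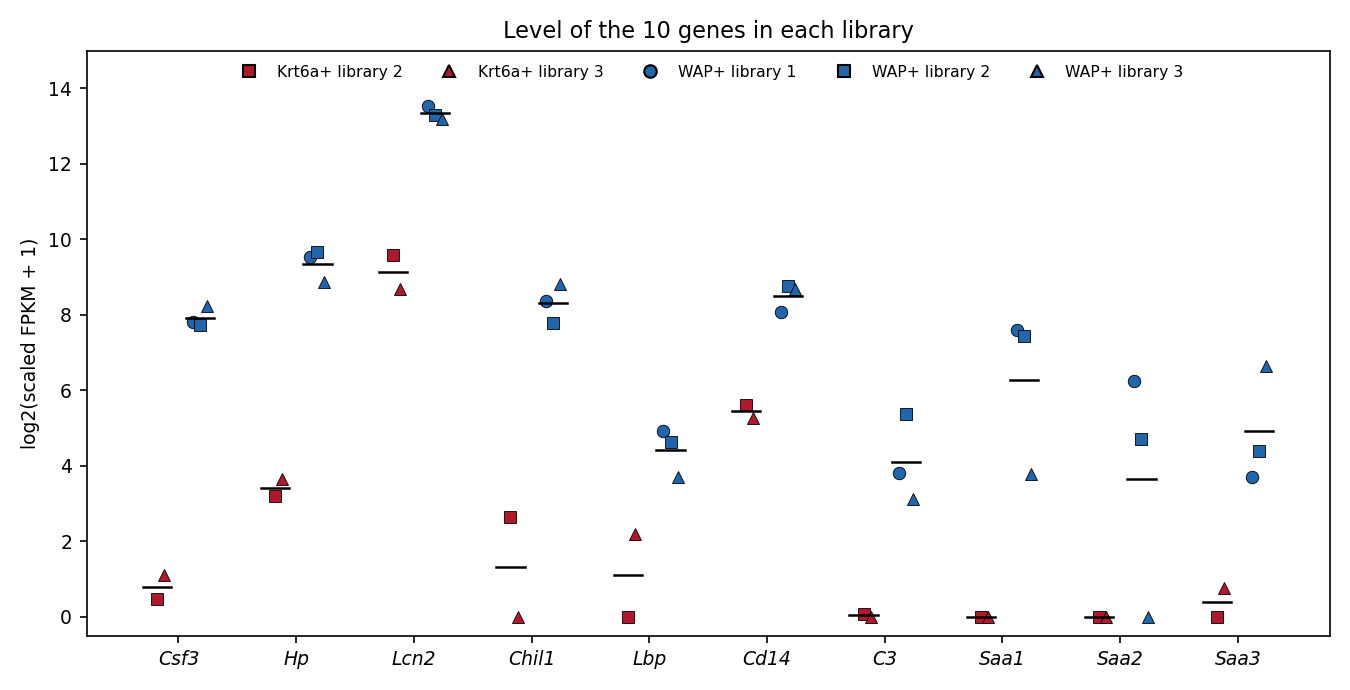
Level of each gene on the log2(scaled FPKM + 1) scale in the 2 Krt6a+ libraries (red, left of each pair) and the 3 WAP+ libraries (blue, right), with a bar at each group's mean. Lcn2 sits highest in both populations, and Saa2 is the gene with a WAP+ library at the level of the Krt6a+ libraries.

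Csf3 encodes granulocyte colony-stimulating factor, the cytokine that drives neutrophil production and release from bone marrow. It had FPKM 0.372 and 1.30 in Krt6a+ libraries, against 254, 193 and 262 in WAP+ libraries. The Krt6a+ values were at the edge of detection, with interval widths equal to about 3 and 8 fragments, while those of the WAP+ libraries corresponded to 1562, 1581 and 1799 fragments. After scaling, Krt6a+ libraries averaged 0.766 ± 0.547 (SD, n = 2), against 245 ± 47.8 (SD, n = 3) for WAP+. The log2 difference was -7.14 ± 0.44 (SE). In mm10 the Csf3 transcript NM_009971 lies on chromosome 11 from 98701313 to 98703629. Of the 10 genes, Csf3 was the most even after Lcn2 among the WAP+ libraries, with a coefficient of variation of 19.5%.

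Lcn2 encodes lipocalin 2, a secreted protein that starves bacteria of iron by binding their siderophores. It had FPKM 757 and 462 in Krt6a+ libraries, against 13525, 9151 and 8197 in WAP+ libraries. It ranked 53rd and 123rd among all genes of the Krt6a+ libraries, and 4th, 6th and 5th among those of the WAP+ libraries. Lcn2 was thus an abundant transcript in both populations, and the one of the 10 whose level varied least among WAP+ libraries (coefficient of variation 12.3%). The log2 difference was -4.20 ± 0.39 (SE), -4.66 without Krt6a+ library 2 and -3.74 without Krt6a+ library 3. Krt8 and Krt18, keratins of luminal cells, ran in the opposite order between the Krt6a+ libraries, at FPKM 66.2 and 719 for Krt8 and 353 and 1283 for Krt18, against 1664, 1917 and 1681 for Krt8 and 4018, 3335 and 3534 for Krt18 in WAP+ libraries. Krt19, another epithelial keratin, ran in the order of Krt8 and Krt18. It had 412 and 803 in Krt6a+ libraries, against 1860, 1463 and 1206 in WAP+ libraries. Krt7, another luminal keratin, ran in the same order as Lcn2, at 1314 and 603 in Krt6a+ libraries, against 620, 359 and 813 in WAP+ libraries. The part of luminal cell content in the Lcn2 difference was not tested.

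Haptoglobin, the product of Hp, binds free haemoglobin in plasma. Hp had FPKM 7.95 and 13.1 in Krt6a+ libraries, against 850, 737 and 408 in WAP+ libraries. The groups did not overlap, and WAP+ library 3, with an interval of 392 to 424, lay below WAP+ libraries 1 and 2 (827 to 873 and 717 to 757). After scaling, Krt6a+ libraries averaged 9.84 ± 2.44 (SD, n = 2), against 675 ± 183 (SD, n = 3) for WAP+. The log2 difference was -5.94 ± 0.40 (SE). The transcript NM_017370 spans 109575128 to 109579172 on chromosome 8.

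Chil1 encodes a chitinase-like secreted protein that binds chitin without cutting it and is made in inflamed epithelia and by macrophages. It had FPKM 5.14 in Krt6a+ library 2 and was listed at 0 in Krt6a+ library 3, against 373, 201 and 396 in WAP+ libraries. The log2 difference was -7.01 ± 0.75 (SE), -8.33 without Krt6a+ library 2 and -5.67 without Krt6a+ library 3, so the level in Krt6a+ cells rests on a single library above 0. Chil1 lies on chromosome 1 from 134182404 to 134190031.

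Lbp and Cd14 act in sequence in the recognition of bacterial lipopolysaccharide: the secreted LPS-binding protein hands it to CD14, which passes it to the receptor pair TLR4 and MD-2 (Ly96). Cd14 had FPKM 47.1 and 42.2 in Krt6a+ libraries, against 306, 392 and 361 in WAP+ libraries. Both Krt6a+ libraries held it well above 0, and its log2 difference was -3.07 ± 0.38 (SE). Lbp was listed at 0 in Krt6a+ library 2 and had FPKM 4.05 in Krt6a+ library 3, against 33.8, 21.4 and 10.5 in WAP+ libraries. Its log2 difference was -3.32 ± 0.79 (SE), -2.22 without Krt6a+ library 2 and -4.38 without Krt6a+ library 3. Lbp was below Cd14 in every library. Lbp lies on chromosome 2 from 158306493 to 158332852 and Cd14 on chromosome 18 from 36725064 to 36726815.

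C3, the central component of complement, had FPKM 0.05002 in Krt6a+ library 2 and was listed at 0 in Krt6a+ library 3, against 14.8, 36.5 and 6.76 in WAP+ libraries. The Krt6a+ library 2 value corresponded to about 2 fragments. WAP+ library 2 was 5.18 times as high as WAP+ library 3 after scaling, and the intervals of the WAP+ libraries (13.3 to 16.2, 34.4 to 38.5 and 5.80 to 7.71) did not overlap. The log2 difference was -4.06 ± 0.79 (SE), -3.48 without WAP+ library 2 and -4.61 without WAP+ library 3. C3 lies on chromosome 17 from 57203967 to 57228136.

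Serum amyloid A proteins are small apolipoproteins of the acute phase that ride on high-density lipoprotein and attract leukocytes. In the mouse Saa1 and Saa2 are the forms best known from liver, and Saa3 is made mostly outside it, in epithelia, fat and macrophages. The 3 genes lie within 42316 bases of chromosome 7, with Saa3 from 46711998 to 46715676, Saa1 from 46740499 to 46742980 and Saa2 from 46751833 to 46754314. In Krt6a+ libraries Saa1 and Saa2 were listed at 0 in both, and Saa3 was listed at 0 in library 2 and had FPKM 0.785, about 1 fragment, in library 3.

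The WAP+ libraries did not share a Saa profile. Saa1 had FPKM 221, 157 and 11.1 in WAP+ libraries 1, 2 and 3, Saa2 had 86.2 and 23.1 and was listed at 0 in library 3, and Saa3 had 13.8, 18.2 and 86.6. Saa3 therefore supplied 4.31% and 9.18% of the summed Saa FPKM in WAP+ libraries 1 and 2, and 88.6% in library 3. The ratio of Saa1 to Saa3 was 16.0, 8.62 and 0.128. The intervals of library 3 (6.15 to 16.1 for Saa1, 71.2 to 102 for Saa3) did not overlap those of library 1 (199 to 243 and 7.64 to 20.0) or library 2 (140 to 174 and 11.8 to 24.6), so counting error is smaller than the difference. With 1 library on that side, the split has no replicate. The transcripts of Saa1 and Saa2 were 93.9% identical over their alignment in the GENCODE M21 annotation of GRCm38, and those of Saa1 and Saa3 64.3%. No stretch of 100 bases, the read length per the labels, was identical between any 2 of the 3 transcripts. How the authors' tools split reads between Saa1 and Saa2 is uncertain. The ratio of Saa1 to Saa3 depends on that split, and the Saa3 share of the summed FPKM does not.

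**Figure D2:**
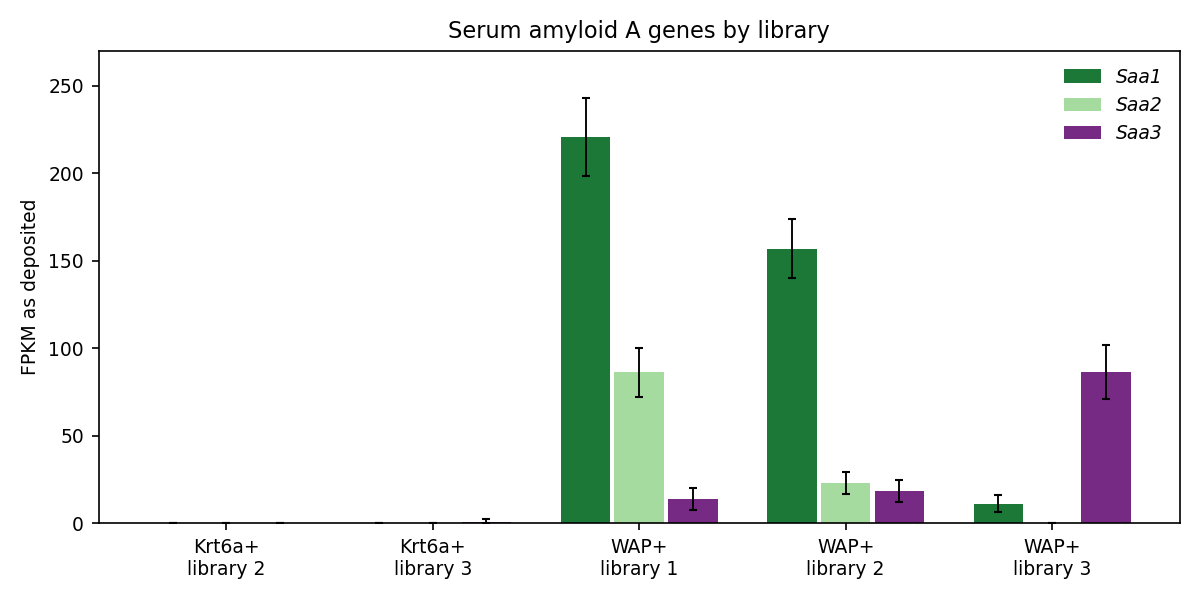
Deposited FPKM of Saa1, Saa2 and Saa3 in each library, Krt6a+ libraries first, with bars for the deposited 95% interval. Saa1 leads in WAP+ libraries 1 and 2, at 221 and 157, and Saa3 leads in WAP+ library 3, at 86.6.

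The start regions of Lcn2, C3 and the Saa genes are printed because these genes were lower in Krt6a+ than in WAP+ libraries while the Saa genes parted among WAP+ libraries. Promoter windows run from 250 bases before to 50 after the RefSeq start of transcription, on build GRCm38.p6, and were found for 6 of the 10 genes. That of Chil1 belongs to a start upstream of the transcript in the deposited tables and is not shown. Csf3, Hp, Lbp and Cd14 had no entry. Capitals mark matches, on either strand, to the C/EBP motif TTNNGNAA or to the loose NF-kB pattern GGRRNNYYCC. In these patterns R is A or G, Y is C or T and N is any base.
Lcn2 promoter window, chr2:32387690-32387989, minus strand: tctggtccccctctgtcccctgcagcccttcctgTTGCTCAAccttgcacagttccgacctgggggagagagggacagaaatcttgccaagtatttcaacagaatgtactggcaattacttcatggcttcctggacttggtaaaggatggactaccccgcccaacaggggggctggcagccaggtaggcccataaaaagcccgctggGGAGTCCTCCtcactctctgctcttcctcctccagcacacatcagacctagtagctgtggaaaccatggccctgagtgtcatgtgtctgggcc
C3 promoter window, chr17:57228087-57228386, minus strand: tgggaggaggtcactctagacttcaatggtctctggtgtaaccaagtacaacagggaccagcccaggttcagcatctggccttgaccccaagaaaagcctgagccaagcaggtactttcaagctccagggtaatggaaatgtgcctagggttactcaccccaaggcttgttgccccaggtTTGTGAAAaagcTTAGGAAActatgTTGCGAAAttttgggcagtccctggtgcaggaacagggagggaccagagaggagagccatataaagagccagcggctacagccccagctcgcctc
Saa1 promoter window, chr7:46742931-46743230, minus strand: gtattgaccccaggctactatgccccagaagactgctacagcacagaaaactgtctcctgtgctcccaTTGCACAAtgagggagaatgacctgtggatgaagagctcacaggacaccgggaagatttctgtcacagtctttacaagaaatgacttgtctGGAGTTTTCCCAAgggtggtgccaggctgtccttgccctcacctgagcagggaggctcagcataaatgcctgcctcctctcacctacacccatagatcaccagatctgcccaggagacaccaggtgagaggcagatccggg
Saa2 promoter window, chr7:46751583-46751882, plus strand: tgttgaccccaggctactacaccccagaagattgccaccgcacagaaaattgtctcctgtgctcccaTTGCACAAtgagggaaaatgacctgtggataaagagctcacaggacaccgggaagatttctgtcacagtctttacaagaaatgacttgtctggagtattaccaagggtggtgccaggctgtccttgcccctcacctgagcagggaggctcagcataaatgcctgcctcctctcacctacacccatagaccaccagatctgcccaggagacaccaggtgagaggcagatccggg
Saa3 promoter window, chr7:46715627-46715926, minus strand: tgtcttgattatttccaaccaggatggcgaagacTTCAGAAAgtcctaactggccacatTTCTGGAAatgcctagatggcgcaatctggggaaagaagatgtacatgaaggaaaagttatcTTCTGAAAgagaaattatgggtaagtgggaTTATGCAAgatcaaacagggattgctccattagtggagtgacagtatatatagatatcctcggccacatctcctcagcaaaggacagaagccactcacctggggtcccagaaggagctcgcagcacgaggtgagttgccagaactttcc

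All 6 windows held at least 1 C/EBP match, as did 40.7% of the 32851 promoter windows of the same length in the table. The NF-kB pattern matched in 3 (Lcn2, Chil1 and Saa1), against 11.2% of all windows. Only the Chil1 match, GGGACTCCCC, had G at base 3, where those of Lcn2 and Saa1 had A. Without the Chil1 window, which belongs to another start, the NF-kB pattern matched in 2 of 5 and the C/EBP motif in 5 of 5. No window held the STAT motif TTCNNNGAA, found in 8.30% of all windows. Saa3 held 4 separate C/EBP matches, from position -216 to -92 counted from the first transcribed base as 0, and C3 held matches at 3 places between -70 and -38, the last of them on both strands. Saa1 and Saa2 windows were 95.3% identical, and both had the C/EBP match TTGTGCAA on the minus strand, so they are not separate cases in these counts. The NF-kB match of Saa1, GGAGTTTTCC at -91, overlapped a second C/EBP match, and the aligned stretch of Saa2, GGAGTATTAC, differed at 2 of 10 bases and matched neither motif. A match is a string of letters and does not show that a factor was bound.

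Within the WAP+ population the 10 genes fell along a range of evenness. Coefficients of variation over the 3 libraries were 12.3% for Lcn2, 19.5% for Csf3, 24.1% for Cd14, 27.1% for Hp and 34.9% for Chil1. They were 41.1% for Lbp, 78.3% for Saa1, 85.7% for C3, 110% for Saa3 and 114% for Saa2. No single WAP+ library was highest throughout: after scaling, library 1 led for Lcn2, Lbp, Saa1 and Saa2, library 2 for Hp, Cd14 and C3, and library 3 for Csf3, Chil1 and Saa3. S100a9, a calcium-binding alarmin named after its values were seen, was listed at 0 in both Krt6a+ libraries and had FPKM 10.6, 9.81 and 116 in WAP+ libraries, high in the same library as Saa3.

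**Figure D3:**
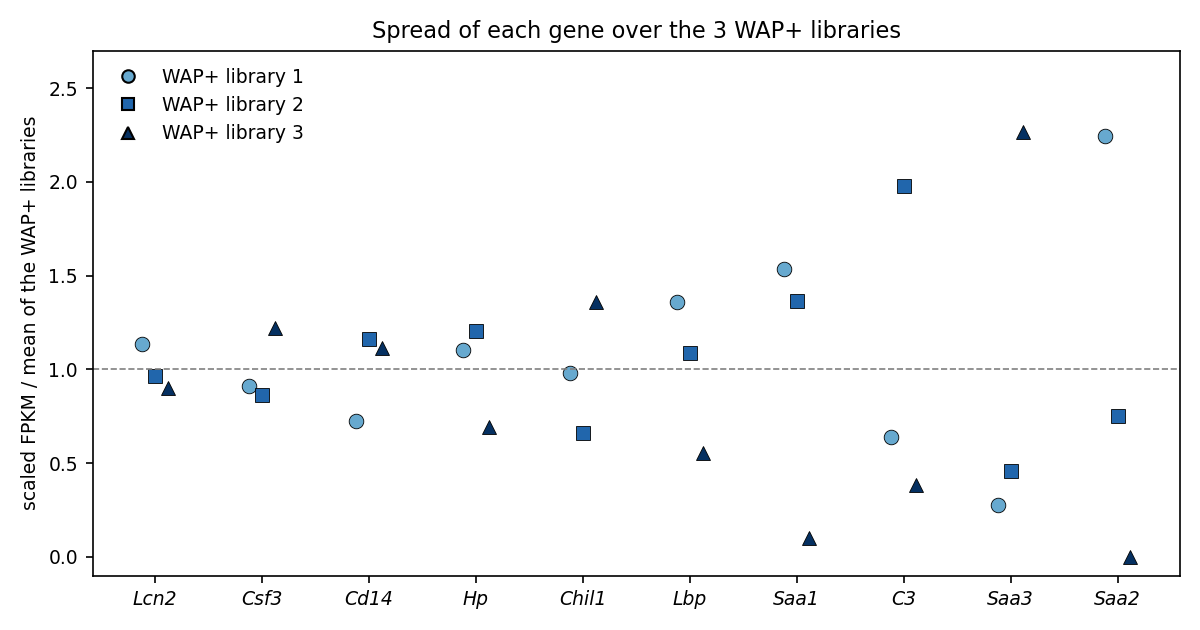
Scaled FPKM of each gene in the 3 WAP+ libraries divided by the mean of those libraries, genes ordered by coefficient of variation. Lcn2, Csf3 and Cd14 stay near 1, and the Saa genes and C3 spread widely, with Saa3 in library 3 and Saa2 in library 1 above 2.

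The surrounding pathway was read from 8 lists of 175 genes in all, 92 of which passed the filter. Across these, 1 gene was higher in Krt6a+ and 0 were lower (limma, adjusted p under 0.05), against 0.258% and 0.434% of all tested genes. With an unadjusted p under 0.05 (limma), 9 were higher and 21 lower, against 742 higher and 915 lower among all 9682 tested genes. The median log2 difference was -0.05 over the 92 genes and -0.01 over all 9682. Over all genes 25 were higher and 42 lower, and 39 and 39 with quantile normalization.

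Receptors and partners of the 10 proteins were mostly low or listed at 0. Csf3r, the receptor for granulocyte colony-stimulating factor, Cd163, the macrophage receptor for haptoglobin bound to haemoglobin, Il13ra2, a receptor for the Chil1 protein, and Fpr2, a receptor for serum amyloid A, were listed at 0 in all 5 libraries. C3ar1, a receptor for a fragment of C3, had FPKM 1.01 and 0.0381 in Krt6a+ libraries, against 0.559, 0 and 0 in WAP+ libraries. Of the 15 genes in this list 5 were tested and 0 were past the threshold in either direction (limma), with 0 higher and 3 lower at an unadjusted p under 0.05. Ly96, the MD-2 partner of TLR4, had FPKM 14.0 and 54.1 in Krt6a+ libraries, against 105, 57.9 and 45.9 in WAP+ libraries (limma, log2 difference -1.32 ± 0.57 SE, adjusted p = 0.287). That difference was -0.48 without Krt6a+ library 2 and -2.15 without Krt6a+ library 3. Tlr4 itself had 6.75 and 0.553 in Krt6a+ libraries, against 2.01, 1.06 and 2.47 in WAP+ libraries, so the groups overlapped. Slc22a17, a proposed Lcn2 receptor, overlapped as well, at 1.57 and 9.40 in Krt6a+ libraries, against 2.20, 10.2 and 2.09 in WAP+ libraries. Scarb1, a lipoprotein receptor that also binds serum amyloid A, had 0.0911 and 0.816 in Krt6a+ libraries, against 24.8, 11.8 and 8.34 in WAP+ libraries, without passing (limma, adjusted p = 0.0594). Tmem219, a co-receptor described for the Chil1 protein, had 5.67 and 0.699 in Krt6a+ libraries, against 20.3, 31.7 and 13.1 in WAP+ libraries (limma, adjusted p = 0.126).

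Of the transcription factors that act on acute phase genes, Cebpb, Stat3 and Cebpd were well above 0 in both populations. Cebpb had FPKM 1340 and 2379 in Krt6a+ libraries, against 1639, 1081 and 2029 in WAP+ libraries, with overlapping groups (limma, log2 0.10 ± 0.41 SE, adjusted p = 0.940). Stat3 had 58.7 and 40.2 in Krt6a+ libraries, against 50.4, 34.4 and 45.8 in WAP+ libraries (limma, log2 0.06 ± 0.42 SE, adjusted p = 0.971). The signs of both differences turned when single libraries were left out. Cebpd, the C/EBP member induced in the acute phase, had 61.0 and 51.4 in Krt6a+ libraries, against 225, 152 and 113 in WAP+ libraries, without overlap between groups and without reaching the threshold (limma, log2 -1.59 ± 0.38 SE, adjusted p = 0.0982).

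In the IL-6 and STAT3 list 20 of 22 genes were tested and 0 were past the threshold in either direction (limma), with 0 higher and 4 lower at an unadjusted p under 0.05. Il6 had FPKM 17.9 in Krt6a+ library 3 and 159 in WAP+ library 1 and was listed at 0 in the other libraries. Il6st, the shared signalling receptor of this family, had 14.6 and 3.51 in Krt6a+ libraries, against 9.99, 5.34 and 5.29 in WAP+ libraries. Socs3, the STAT3-induced feedback inhibitor, had 52.8 and 15.7 in Krt6a+ libraries, against 21.7, 17.9 and 14.1 in WAP+ libraries, with overlapping groups (limma, adjusted p = 0.683). Bcl3, an I-kappa-B family co-regulator, had 141 and 216 in Krt6a+ libraries, against 111, 70.9 and 95.8 in WAP+ libraries (limma, log2 0.81 ± 0.36 SE, adjusted p = 0.309).

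Of the 31 genes in the IL-17, C/EBP and NF-kB list 27 were tested, 20 had a positive difference and 7 a negative one, the median was 0.23, and 1 gene was past the threshold as higher and 0 as lower (limma), with 5 higher and 2 lower at an unadjusted p under 0.05. That gene was Myd88, the adaptor that links Toll-like and interleukin 1 receptors to NF-kB, which rose to FPKM 53.7 and 96.6 in Krt6a+ libraries, against 10.1, 7.78 and 9.55 in WAP+ libraries. After scaling, Krt6a+ libraries averaged 70.2 ± 21.8 (SD, n = 2), against 9.45 ± 1.30 (SD, n = 3) for WAP+ (limma, log2 2.74 ± 0.46 SE, adjusted p = 0.0495). The call was lost without Krt6a+ library 2 or 3 (limma, adjusted p = 0.0573 and 0.0826), without WAP+ library 1, 2 or 3 (0.138, 0.202 and 0.174) and on FPKM without further scaling (0.0522), while the log2 difference stayed between 2.43 and 3.06 without any 1 library. Nfkbiz, the I-kappa-B zeta co-activator needed for Lcn2 induction in mouse cells, had 24.8 and 110 in Krt6a+ libraries, against 26.6, 12.1 and 8.60 in WAP+ libraries (limma, adjusted p = 0.239). Nfkbia, the feedback inhibitor I-kappa-B alpha, had 712 and 1834 in Krt6a+ libraries, against 911, 456 and 425 in WAP+ libraries (limma, adjusted p = 0.352). A further 3 genes of the list were named after their values were seen. The feedback deubiquitinase gene Tnfaip3 had 19.1 and 60.7 in Krt6a+ libraries, against 15.6, 5.50 and 1.87 in WAP+ libraries (limma, adjusted p = 0.188). The receptor Tlr2 had 6.20 and 25.6 in Krt6a+ libraries, against 3.64, 0.432 and 4.33 in WAP+ libraries (limma, adjusted p = 0.289). Irak3, which dampens MyD88 signalling, had 0.626 and 0.0749 in Krt6a+ libraries, against 15.1, 13.3 and 15.7 in WAP+ libraries (limma, log2 -3.61 ± 0.61 SE, adjusted p = 0.0520).

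Of 21 chemokines and growth factors of granulocytes and other myeloid cells 11 were tested and 0 were past the threshold in either direction (limma), with 1 higher and 1 lower at an unadjusted p under 0.05. Cxcl1 had FPKM 150 and 441 in Krt6a+ libraries, against 635, 221 and 424 in WAP+ libraries. Cxcl2 had 7.46 and 566 in Krt6a+ libraries, against 503, 44.1 and 407 in WAP+ libraries. Both neutrophil chemokines overlapped between populations (Cxcl2 limma, adjusted p = 0.642, and 0.529 for Cxcl1). Cxcl17, a mucosal chemokine, had 22.3 and 115 in Krt6a+ libraries, against 30.7, 21.6 and 39.9 in WAP+ libraries. Csf1, the macrophage colony-stimulating factor, named after its values were seen, had 1.82 and 0.879 in Krt6a+ libraries, against 13.5, 11.1 and 11.1 in WAP+ libraries (limma, log2 -2.56 ± 0.59 SE, adjusted p = 0.0932).

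**Figure D4:**
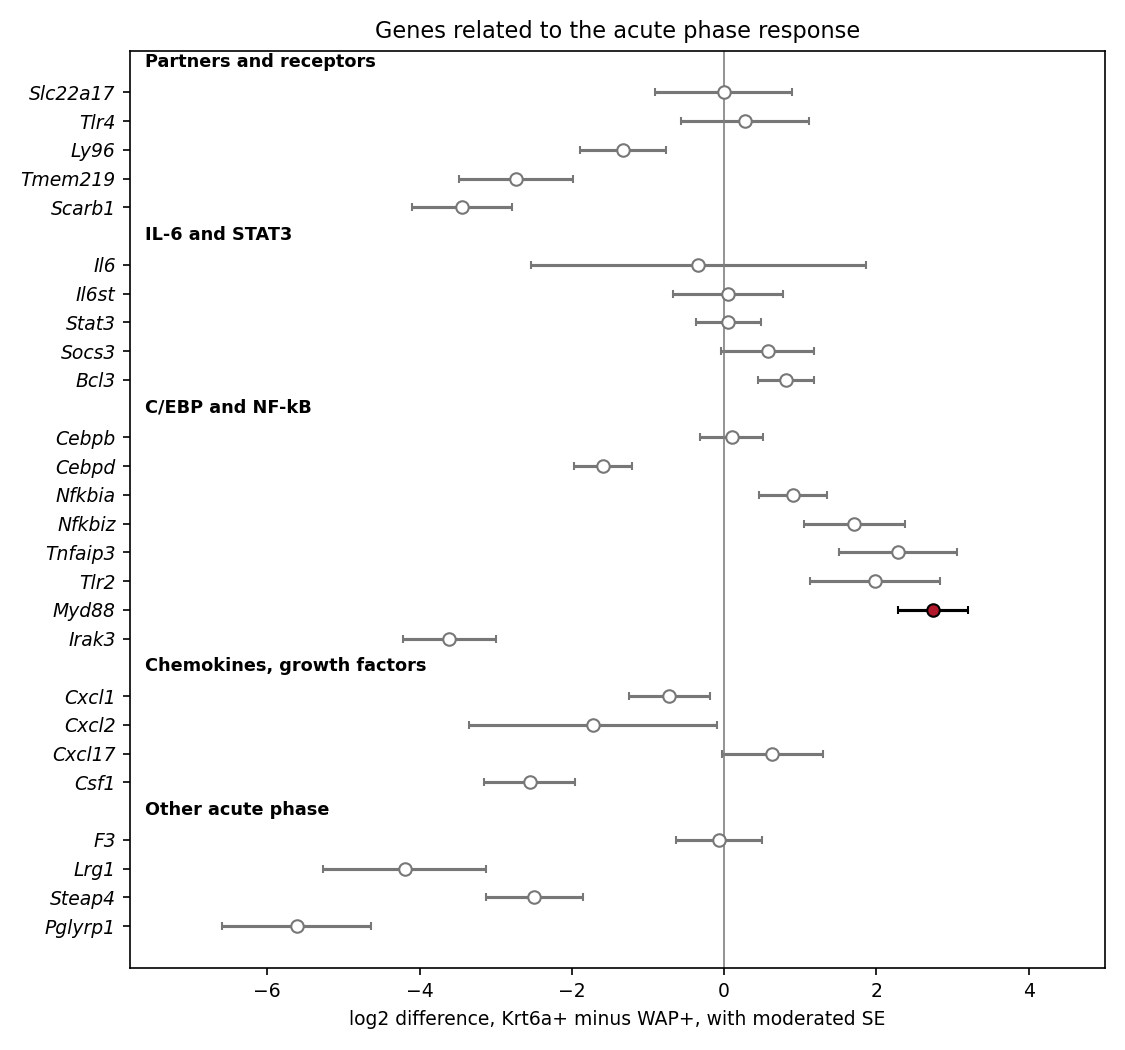
Log2 differences, Krt6a+ minus WAP+, with moderated SE for genes of the surrounding pathway. Myd88 (filled) is past the threshold over all genes, and Cebpb, Stat3 and Il6st sit near 0.

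Of 29 other acute phase genes 15 were listed at 0 in all libraries, 11 were tested and 0 were past the threshold in either direction (limma), with 1 higher and 5 lower at an unadjusted p under 0.05. Pglyrp1, a secreted protein that binds bacterial peptidoglycan, had FPKM 13.4 and 0 in Krt6a+ libraries, against 192, 194 and 159 in WAP+ libraries (limma, log2 -5.62 ± 0.97 SE, adjusted p = 0.0520). Lrg1, a leucine-rich glycoprotein of the acute phase, had 0.591 and 30.0 in Krt6a+ libraries, against 232, 68.6 and 99.9 in WAP+ libraries (limma, adjusted p = 0.111). Steap4, a metalloreductase induced by inflammatory cytokines and named after its values were seen, had 0.598 and 0.0629 in Krt6a+ libraries, against 6.70, 4.91 and 6.93 in WAP+ libraries (limma, adjusted p = 0.113). F3, tissue factor, overlapped, at 46.3 and 164 in Krt6a+ libraries, against 147, 78.0 and 51.7 in WAP+ libraries. Pglyrp1 and Lrg1 were past the threshold without Krt6a+ library 3, as was Cd59a of the complement list, and Pglyrp1 also without Krt6a+ library 2. The log2 difference of Pglyrp1 was -7.56 without Krt6a+ library 2 and -3.66 without Krt6a+ library 3.

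Of 29 complement genes other than C3, 12 were listed at 0 in all libraries, 11 were tested and 0 were past the threshold in either direction (limma), with 1 higher and 4 lower at an unadjusted p under 0.05. The regulators were the most abundant: Clu, clusterin, had FPKM 94.2 and 175 in Krt6a+ libraries, against 350, 486 and 358 in WAP+ libraries (limma, adjusted p = 0.0929). Cd59a, which blocks the membrane attack complex, had 0.456 and 3.82 in Krt6a+ libraries, against 33.5, 18.3 and 22.7 in WAP+ libraries (limma, adjusted p = 0.0581). Cd55, which speeds the decay of C3 convertases, had 12.1 and 33.5 in Krt6a+ libraries, against 13.7, 8.39 and 9.64 in WAP+ libraries (limma, adjusted p = 0.497).

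Relatives of Chil1 and Lcn2 were few. In the chitinase family 3 of 8 genes were tested and 0 were past the threshold (limma), with 1 higher and 0 lower at an unadjusted p under 0.05, and Chit1, a true chitinase, had FPKM 2.43 and 19.3 in Krt6a+ libraries, against 1.84, 0 and 0 in WAP+ libraries. Chid1 was listed at 0 in Krt6a+ libraries, against 4.74, 2.704 and 0 in WAP+ libraries, and Ctbs was at most 1.42 in any library. In the list of lipocalins and iron handling genes 4 of 20 were tested and 0 were past the threshold (limma), with 0 higher and 2 lower at an unadjusted p under 0.05. Apod, another lipocalin, had 0.212 and 1.06 in Krt6a+ libraries, against 88.2, 29.3 and 9.01 in WAP+ libraries (limma, adjusted p = 0.0607). Slc11a2, an iron importer, had 0.326 and 3.66 in Krt6a+ libraries, against 18.1, 9.31 and 14.2 in WAP+ libraries (limma, adjusted p = 0.118), and Hmox1, the haem-degrading oxygenase, 99.3 and 177 in Krt6a+ libraries, against 896, 86.5 and 118 in WAP+ libraries.

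The genes nearest in profile were taken as those with the smallest root mean square difference between log2(scaled FPKM + 1) values, centred on each gene's mean, over the 5 libraries. For Csf3 they were Spp1 (0.82), Sectm1a (1.02) and Cox7a1 (1.06). For Hp they were Sectm1a (0.33), Spp1 (0.59) and the milk gene Lalba (0.70). Spp1, osteopontin, had FPKM 13.6 and 56.9 in Krt6a+ libraries, against 4698, 2477 and 1201 in WAP+ libraries. For Lcn2 they were Tgm2 (0.34), Rps16 (0.34) and Ecscr (0.37), and for Cd14 Rps6 (0.16), Isg15 (0.21) and Chpt1 (0.22). Sectm1a, Cox7a1, Lalba, Rps16 and Ecscr were listed at 0 in both Krt6a+ libraries, so their nearness depends on the pseudocount of 1. Tgm2, Isg15 and Chpt1 were below FPKM 1 in both, and the same holds for them. A pseudocount of 0.1 gave log2 differences of -6.83 for Tgm2, -7.52 for Rps16 and -7.82 for Ecscr, against -4.21 for Lcn2. It gave -6.55 for Spp1, -8.66 for Sectm1a and -8.82 for Cox7a1, against -8.29 for Csf3. Hp had -6.07 with that pseudocount, and Lalba -8.25. Of the genes nearest Cd14, Rps6 had -4.12, Isg15 -5.04 and Chpt1 -4.86, against -3.09 for Cd14. The 2 ribosomal protein genes were at most FPKM 20.6 in any library, and other ribosomal protein genes (Rpl10, Rpl11) were listed at 0 throughout, so their estimates are doubtful.

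Markers of cells known for these transcripts were read beside them. Csf3, Lcn2 and Chil1 proteins act on or are stored in neutrophils, and 8 of 12 neutrophil markers in the tables, Mpo, Elane, Ngp, Camp and Csf3r among them, were listed at 0 in all libraries. Without S100a8 and S100a9 the list summed to FPKM 0 and 0 in Krt6a+ libraries, against 0.176, 2.82 and 0.342 in WAP+ libraries. S100a8, which epithelia make as well and which was named after its values were seen, fell to 4.82 and 2.40 in Krt6a+ libraries, against 2226, 4442 and 4912 in WAP+ libraries (limma, log2 -9.78 ± 0.54 SE, adjusted p = 0.000342). Of 13 macrophage and monocyte markers 10 were listed at 0 in all libraries, among them Adgre1, Lyz2 and Ptprc, and the sum was 14.5 and 20.2 in Krt6a+ libraries, against 10.1, 26.4 and 19.5 in WAP+ libraries. Hepatocyte markers summed to 0.222 and 0 in Krt6a+ libraries, against 0, 0 and 5.43 in WAP+ libraries, with 7 of 10 listed at 0 in all. Lymphocyte markers summed to at most 3.59 in any library, with 6 of 8 listed at 0 in all. Epithelial markers were present in every library, at a sum of 5446 and 7020 in Krt6a+ libraries, against 10589, 8385 and 9702 in WAP+ libraries. The sum covers genes with higher values in Krt6a+ libraries too: the basal keratin gene Krt5 had 434 and 374 in Krt6a+ libraries, against 22.4, 13.4 and 34.7 in WAP+ libraries, and Krt14 had 2284 and 2263 in Krt6a+ libraries, against 936, 130 and 862 in WAP+ libraries. The part of basal and luminal cell content in the differences of the 10 genes was not tested. WAP+ library 1 stood apart in Fabp4, at 2188 against 65.8 and 20.3 in the other WAP+ libraries and 0 in Krt6a+ libraries, with the other 6 adipocyte markers listed at 0 throughout, and in the endothelial sum, at 23.5 against at most 0.744 elsewhere. Fibroblast markers summed to 57.5 and 210 in Krt6a+ libraries, against 18.6, 8.60 and 84.2 in WAP+ libraries. The part of adipocyte, endothelial and fibroblast RNA in these differences was not tested. Without WAP+ library 1 the log2 differences were -7.18 for Csf3, -5.86 for Hp, -4.13 for Lcn2, -3.30 for Cd14 and -6.98 for Chil1. They were -5.57 for Saa1, -5.11 for Saa3, -3.05 for Lbp and -4.17 for C3, and Saa2 no longer passed the filter.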

How the data were processed

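RNA-seq tables of 5 libraries were used. TopHat, Cufflinks and build mm10 are named in the submitters' processing notes, without versions or read filters. Per the labels, cDNA was amplified with a SMART-Seq v4 kit and made into Nextera libraries, which do not mark the strand. The deposited FPKM values and their 95% bounds were made by the authors for 34535 transcripts, and coverage, deposited beside them as a signal, served only to describe depth.

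FPKM was summed by symbol (24347 symbols) and divided by median-ratio factors of 0.980 and 1.13 (Krt6a+) and 1.14, 0.909 and 0.873 (WAP+), from 5334 genes that reached FPKM 1 in each library. Genes at FPKM 1 or more in at least 2 libraries (9682) were compared as log2(scaled FPKM + 1) with limma 3.58.1 in R 4.3.3 (mean-variance trend, two-sided, Benjamini-Hochberg over all tested genes, threshold 0.05), tested first on simulated data. An exact permutation test of 2 against 3 libraries cannot reach the threshold and was not used. The 10 genes and the lists were chosen with earlier results of these data known, the lists by function. Genes named were the 10, Krt6a and Wap, in each list those past the threshold and the 3 highest others, fixed partners and regulators, and the 3 nearest profiles, others being marked as named after their values were seen. Fragment numbers were derived from interval widths as Poisson error. Promoter sequences are from RefSeq (GRCm38.p6). Alternatives were pseudocounts, filters, scalings, 1 transcript per symbol, no trend, a replicate block and leaving out each library.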

Additional observations from a re-analysis of the deposited data

How the results depend on the processing

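The log2 differences of the 10 genes were negative under every alternative run. That follows from how the genes were picked, low in Krt6a+ in these same libraries, and is no measure of stability. Filters and the mean-variance trend cannot move such a difference. Under the other alternatives, 88 of 108 values moved by less than the gene's own spread between replicates and 20 by more. That spread is wide for the most uneven genes, so a large change in them can count as less. For Saa2 a change from -3.66 to -5.85 with a pseudocount of 0.1 counted as less. The median of the 10 genes was -4.37, and -6.38 with a pseudocount of 0.1, -3.53 with a pseudocount of 5, -4.67 with a replicate block, and -5.11 to -4.41 without single libraries. These medians include Saa1 and, except without WAP+ library 1 or 2, Saa2. Both were listed at 0 in Krt6a+ libraries, and their differences rest on the pseudocount. Of the 10 genes, 5 were past the threshold, and 2 with no filter, 7 with the stricter filter and 3 with no trend. Without WAP+ library 1 or 2, 9 of the 10 genes were left by the filter, so the medians there (-5.11 and -4.84) leave out Saa2.

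Counts of genes past the threshold, 25 higher and 42 lower, were 6 and 20 with a pseudocount of 0.1, 2 and 3 with no filter, 66 and 91 with a stricter filter (mean FPKM of 5 or more), 15 and 19 with a replicate block, and 7 and 9 when the mean-variance trend was dropped. A pseudocount of 5 gave 41 higher, quantile normalization 39 higher, and FPKM without further scaling 27 lower. Without single libraries there were 2 to 44 higher and 3 to 103 lower. The single related gene higher in Krt6a+, Myd88, gave a count of 0 with a pseudocount of 0.1, no filter, no further scaling, no trend, a replicate block and without any single library (0 to 0). Related genes lower, 0 with all libraries, numbered 1 with a pseudocount of 5, 4 with the stricter filter, 1 with the highest transcript per symbol, and 0 to 3 without single libraries. The cause was not tested.

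Differences that did not pass changed sign for F3 (0.0572 without further scaling, 0.18 quantile, 0.22 replicate block), Stat3 (-0.34, highest transcript), Il6 (0.18 with a pseudocount of 0.1, 2.04 replicate block), Ctbs (0.38 with a pseudocount of 0.1, 0.0710 without further scaling, 0.18 quantile), Hmox1 (0.15, replicate block), Il6st (-0.0738, quantile) and Slc22a17 (0.11 without further scaling, 0.0033 quantile, 0.0093 highest transcript). Without single libraries F3 ranged from -0.85 to 0.74, Cxcl2 from -4.64 to 1.22, Cxcl17 from -0.41 to 1.69, Stat3 from -0.31 to 0.43, Il6 from -1.54 to 1.70, Cebpb from -0.20 to 0.42, Ctbs from -0.45 to 0.31, Hmox1 from -1.40 to 0.14, Slc22a17 from -0.91 to 0.92, Tlr4 from -0.93 to 1.47, Il6st from -0.92 to 1.03 and Socs3 from -0.37 to 1.52.

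The replicate numbers 2 and 3 occur in both populations but the labels do not say what they share, so no pairing was used. Deviations of same-numbered libraries correlated at 0.0495 and 0.000266. The 2 Krt6a+ libraries deviate from their mean by equal and opposite amounts, so these correlations cannot decide whether same-numbered libraries share an animal or sort. With 1 Krt6a+ library left, that library is assumed to vary like the WAP+ libraries. The depth of single low values, 1 to 8 fragments for Csf3, C3 and Saa3 in Krt6a+ libraries, limits their fold changes.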
